A study of Mus musculus with 6 samples.

Results

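The respiratory chain is the set of protein complexes in the inner mitochondrial membrane that pass electrons from nutrients to oxygen and use the energy released to make ATP. Its genes were chosen by symbol from the count table: rows beginning with Nduf and a subunit letter and number, the 4 Sdh subunits, and rows beginning with Uqcr, Cox4 to Cox8 or Atp5, without the 4 rows marked as pseudogenes by a -ps ending. These gave 84 nuclear genes, which were set against the 13 protein-coding genes of the mitochondrial genome, so that 97 of the 44788 rows of the table were members. The symbol rule itself uses no measured value.

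The libraries came from the scraped lining of the uterus, the endometrium, of female ICR mice, an outbred strain. All 16 mice had been dosed as newborns, from day 2 to day 5 of life, with oral tamoxifen (2.7 µmol/kg) to induce adenomyosis, in which endometrial glands and stroma grow into the muscle wall. After 75 days, 8 of them were injected into the abdomen with the GnRH agonist Decapetyl from day 3 to day 9 of estrus (1.5 µg per 100 g body weight daily), and the other 8 with its solvent. Mating followed 4 weeks later and tissue was taken on day 4 of pregnancy, shortly before embryos implant. There were 3 libraries with and 3 without agonist. They are numbered here within each group in the order of their columns, and equal numbers do not mark a pair. No library came from mice without tamoxifen. The labels do not say whether a library is 1 mouse or a pool, and p-values therefore reflect library-to-library spread, which may be technical.

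Complexes I and II take electrons from NADH and succinate, complex III passes them on to cytochrome c, complex IV hands them to oxygen, and complex V is the ATP synthase. Complex II is encoded by nuclear genes alone, while the other complexes mix nuclear subunits with a few made inside the mitochondrion. The mitochondrial genes are transcribed from a shared promoter region into long precursor RNAs that are then cut up, whereas each nuclear gene has its own promoter, often bound by NRF1, by ETS family factors such as GABP, or by YY1. The endometrium of early pregnancy prepares for implantation, which involves growth and remodelling of epithelium and stroma.

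Some neighbours among the mitochondrial genes share bases. How reads on shared bases were counted is not stated in the sources used. ATP8, a small subunit of the ATP synthase membrane part, lies on the plus strand of the mitochondrial chromosome at M:7766-7969 (GRCm38). It shares 43 of its 204 bases, 21.1%, with the start of ATP6, shown in capitals. ND4L, a membrane subunit of complex I at M:9877-10173, plus strand, shares 7 of its 297 bases with ND4. By log2 CPM with a prior count of 2, these 2 genes had the widest spread of the tested members between libraries, as described below. In plain CPM, the low-count Cox8b spread wider.
ATP8: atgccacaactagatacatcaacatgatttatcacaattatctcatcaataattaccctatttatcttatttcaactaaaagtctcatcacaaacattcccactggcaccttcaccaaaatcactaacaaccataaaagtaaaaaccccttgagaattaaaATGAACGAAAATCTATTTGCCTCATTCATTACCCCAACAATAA
ND4L: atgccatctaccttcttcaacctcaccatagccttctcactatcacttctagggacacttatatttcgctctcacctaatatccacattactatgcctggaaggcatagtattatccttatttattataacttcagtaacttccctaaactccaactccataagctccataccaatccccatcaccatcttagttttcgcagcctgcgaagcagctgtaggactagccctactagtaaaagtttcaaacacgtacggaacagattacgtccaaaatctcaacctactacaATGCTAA

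Promoters of nuclear members, taken from RefSeq for GRCm38.p6 as 250 bases before to 50 bases after the gene start, were matched by symbol for 66 of the 84 genes, which gave 71 promoters. They were searched on both strands for GCGCA and GCGC separated by any 1 base (NRF1), CCGGAAG (ETS) and AAGATGGC (YY1). The NRF1 letters stood in 18 of the 71 member promoters (25.4%) and in 4.60% of all 32851 mouse promoters of that length. The ETS letters stood in 16 (22.5%, against 8.86% of all) and the YY1 letters in 9 (12.7%, against 2.75%). At least 1 of the 3 motifs was found in 37 of 71 member promoters (52.1%) and in 14.7% of all promoters. A match is a run of letters and not a measured binding site. The promoters of Sdha (minus strand, chr13:74350191-74350490), the complex II subunit that oxidizes succinate, and Cox6a1 (minus strand, chr5:115348909-115349208), a complex IV subunit, are shown as examples of the 3 members whose promoters held 3 matches each, in capitals; the other was Ndufb4, with 3 NRF1 matches. Sdha had 3 NRF1 matches, and Cox6a1 had 2 NRF1 matches and 1 ETS match.
Sdha: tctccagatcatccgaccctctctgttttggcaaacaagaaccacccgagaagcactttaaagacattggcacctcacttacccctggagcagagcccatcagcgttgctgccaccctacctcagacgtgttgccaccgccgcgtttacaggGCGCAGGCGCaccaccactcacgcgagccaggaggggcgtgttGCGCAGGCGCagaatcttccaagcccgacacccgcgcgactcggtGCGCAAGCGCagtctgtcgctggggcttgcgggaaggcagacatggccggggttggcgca
Cox6a1: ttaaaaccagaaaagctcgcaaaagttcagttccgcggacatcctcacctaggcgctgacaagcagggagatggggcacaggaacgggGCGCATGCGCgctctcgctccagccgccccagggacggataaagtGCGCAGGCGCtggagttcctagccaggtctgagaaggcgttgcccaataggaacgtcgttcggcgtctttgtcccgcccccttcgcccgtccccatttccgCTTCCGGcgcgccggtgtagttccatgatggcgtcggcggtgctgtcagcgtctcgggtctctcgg

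Depth ranged from 11720958 to 14104266 counts per library. Of the 16581 genes with enough counts to test, none passed an adjusted p of 0.05 by edgeR's quasi-likelihood test (0.00% called), and 1535 (9.26%) had an unadjusted p under 0.05. Other tools called 394 genes (DESeq2), 268 (edgeR's likelihood ratio test, chosen after seeing the data) and 0 (limma-voom), none of them a member. Marker genes were read beside the tissue label: all 11 epithelial and all 10 stromal markers had counts in every library, as did all 12 smooth muscle markers. The same held for all 10 endothelial, 10 macrophage and dendritic cell, 6 pericyte and 9 proliferation markers. Presence alone is therefore no check of the label. Of 10 fat markers, 6 were at 0 in at least 1 library. The fat cell hormone gene Adipoq measured 65.5, 0 and 21.0 CPM without agonist and 76.5, 0 and 61.5 CPM with it, so that library 2 of each group had none. Of 5 mesothelial markers, 2 (Msln and Lrrn4) were at 0 in at least 1 library. Msln measured 3.77, 0 and 4.59 CPM without and 13.4, 0 and 0.154 CPM with agonist. The other markers did not follow it in agonist library 3. Upk3b measured 10.3 CPM there, and Upk1b and Wt1 were at their highest, at 8.54 and 60.5 CPM. Where Msln was at 0, Wt1 measured 23.3 CPM without and 33.3 CPM with agonist. The part of these other tissues in the results was not tested. Summed smooth muscle markers ranged from 9390 to 23880 CPM (counts scaled to the effective library size) without agonist and from 4085 to 14301 CPM with it. Summed epithelial markers ranged from 8323 to 13436 CPM and from 4660 to 7078 CPM, and 6 of the 11 had an unadjusted p under 0.05, all lower with agonist. The share of 18S ribosomal RNA was 3.31% in no-agonist library 2 and 1.94% in agonist library 1, against 0.254% to 0.369% in the others. In such bulk tissue, fewer cells of a type and less RNA per cell cannot be told apart.

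Respiratory chain RNA from the nucleus took between 0.912% and 1.23% of each library, whereas the share from the mitochondrial genome varied 3.18-fold, within as well as between groups. The 84 nuclear genes together made up 0.969%, 1.10% and 0.912% of the counts in the 3 libraries without agonist and 1.07%, 1.23% and 0.965% in the 3 with agonist. The means were 0.994% ± 0.0974 and 1.09% ± 0.131 (SD, n = 3 each), and the highest library was 1.34 times the lowest. The 13 mitochondrial genes made up 1.22%, 2.39% and 2.92% of the counts without agonist and 3.89%, 2.63% and 2.27% with it. Their means were 2.18% ± 0.867 and 2.93% ± 0.854 (SD, n = 3 each), and the highest library was 3.18 times the lowest. The groups overlapped for both shares. The widest exact (Clopper-Pearson) 95% binomial interval of a single share, that of the mitochondrial genes in agonist library 1, ran from 3.88% to 3.90%, and such intervals cover counting error only.

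**Figure D1:**
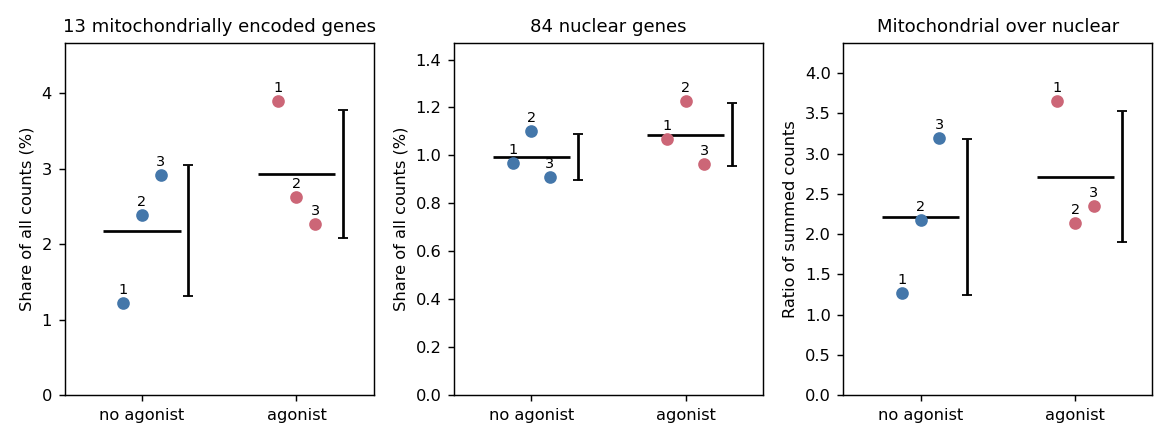
Share of all counts taken by the 13 mitochondrially encoded genes (left) and the 84 nuclear genes (middle), in percent, and the ratio of the former to the latter (right), on linear axes from 0. Points are libraries, numbered within their group, horizontal lines are group means and vertical bars are SD (n = 3). The mitochondrial share runs from 1.22% to 3.89%, the nuclear share only from 0.912% to 1.23%, and the groups overlap in all 3 panels.

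Counts on mitochondrial genes outnumbered those on nuclear members in every library, by ratios of 1.26, 2.17 and 3.20 without agonist and 3.65, 2.14 and 2.35 with it. This ratio does not depend on how libraries are scaled. On the log2 scale the group means were 1.04 ± 0.674 and 1.40 ± 0.411 (SD, n = 3 each), a difference of 0.36 that is smaller than the SD within either group. No-agonist library 1, the lowest, and agonist library 1, the highest, set most of it. Leaving out no-agonist library 1 gave a difference of 0.002, leaving out agonist library 1 gave 0.12, and leaving out no-agonist library 3 gave 0.67. Without both libraries high in 18S RNA, an alternative chosen after seeing the data, it was 0.16.

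Of the 84 nuclear members, 80 had enough counts to be tested, and none had an unadjusted p under 0.05 in either direction, where 4.17% of all genes tested had one on the higher side and 5.09% on the lower. Fitted levels were higher with agonist for 39 and lower for 41, and the median log2 fold change (agonist over no agonist) was -0.0007, beside 0.02 for all genes tested. In none of the 80 did the 3 agonist libraries lie wholly above or below the 3 others, a separation seen in 6.94% (above) and 7.61% (below) of all genes tested. The 95% interval of the fold change lay within 2-fold in both directions for 70 of the 80 (87.5%), against 46.3% of all genes tested and 58.8% of those with a mean of at least 5 CPM. Changes larger than 2-fold thus fell outside the interval for these 70, and for 15 of the 80 the interval lay within 1.5-fold. The smallest p of all 80 was that of Ndufc2, with an adjusted p of 0.565.

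All 13 mitochondrial genes were tested, and none had an unadjusted p under 0.05 or groups that did not overlap. Fitted levels were higher with agonist for 11 and lower for 2 (ATP8 and ND6), with a median log2 fold change of 0.19. That sign rested on single libraries: leaving out no-agonist library 1 gave a median of -0.16, leaving out agonist library 1 gave -0.13, and leaving out no-agonist library 3 gave 0.58. ND3, a small complex I subunit, alone had an interval within 2-fold (-0.66 to 0.94 on the log2 scale). The median within-group SD of log2 CPM was 0.79 for the mitochondrial genes, 0.31 for the nuclear members tested and 0.37 for all genes tested.

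**Figure D2:**
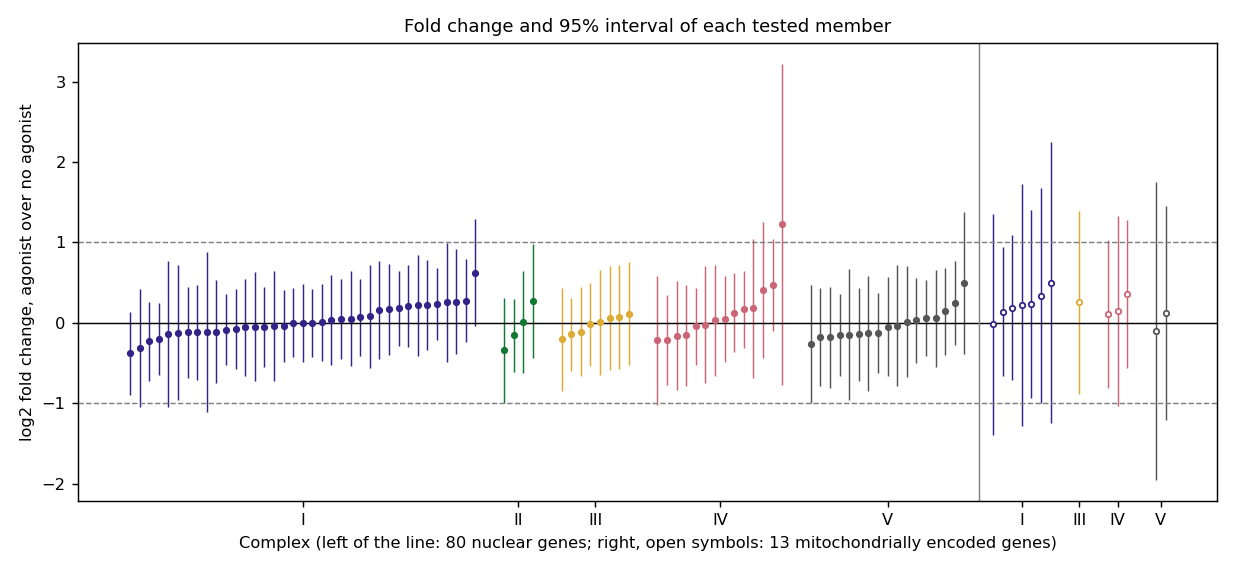
Log2 fold change, agonist over no agonist, of the 93 tested members by complex, with 95% intervals from edgeR's quasi-likelihood fit of 3 against 3 libraries. Filled points left of the vertical line are the 80 nuclear genes and open points on the right the 13 mitochondrial genes, and dashed lines mark 2-fold. Every interval crosses 0; 70 of 80 nuclear and 1 of 13 mitochondrial intervals lie between the dashed lines.

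Complex I, the entry point for NADH, had 37 nuclear members by symbol, all tested, including Ndufa4 and its relative Ndufa4l2, of which Ndufa4 is now assigned to complex IV. Their median log2 fold change was -0.0002, with 18 above and 19 below 0, and 33 intervals lay within 2-fold. The 7 core subunits among them, which carry the flavin and iron-sulfur clusters, all had intervals within 2-fold. Ndufs1, the largest of these subunits, measured 70.3, 66.0 and 84.7 CPM without agonist and 66.9, 81.3 and 72.5 CPM with it, a log2 fold change of -0.001 ± 0.18 (SE). Its 6 libraries intermingled. Ndufs8, an iron-sulfur subunit, measured 114, 136 and 142 CPM without and 82.2, 126 and 93.6 CPM with agonist. Its log2 fold change was -0.38 ± 0.22 (SE, adjusted p = 0.664), and agonist library 2 lay among the libraries without agonist. When that library was left out, the unadjusted p was under 0.05, with an adjusted p of 0.580.

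Among the 30 accessory subunits of complex I, which surround the core, the values leaned to no common side: 16 were above and 14 below 0. Ndufc2, a subunit of the membrane arm, measured 84.0, 121 and 88.3 CPM without agonist and 121, 212 and 118 CPM with it. Agonist library 2 stood above all others, and no-agonist library 2 lay level with agonist library 1. The log2 fold change was 0.62 ± 0.29 (SE, 95% interval -0.05 to 1.29), and over the 17 alternatives its adjusted p ranged from 0.404 to 0.796, and in 6 of them the unadjusted p was under 0.05. Ndufb2, also of the membrane arm, showed how far a single library could lie from its group: it measured 118, 159 and 171 CPM without and 80.9, 225 and 100 CPM with agonist. Without agonist library 2, its unadjusted p was under 0.05 on the lower side (adjusted p = 0.565). Ndufb5 had a log2 fold change of 0.28 ± 0.22 and Ndufs4, a subunit needed for stable assembly, of 0.23 ± 0.19 (SE, adjusted p = 0.762 and adjusted p = 0.773). Ndufa7 was the steadiest member of all, at 110 to 136 CPM in the 6 libraries, a range of 1.23-fold.

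The mitochondrial subunits of complex I form the proton-pumping membrane core. ND1 measured 1971, 3703 and 4193 CPM without agonist and 4579, 3963 and 2717 CPM with it. ND2 measured 389, 1193 and 1479 CPM without and 1713, 1045 and 842 CPM with agonist. ND4 measured 695, 2510 and 2639 CPM without and 3960, 1958 and 1466 CPM with agonist. No-agonist library 1 was the lowest and agonist library 1 the highest for each of the 3 genes. ND5 measured 252, 834 and 1353 CPM without and 1631, 741 and 479 CPM with agonist. ND3 measured 71.5, 99.6 and 137 CPM without and 108, 159 and 72.6 CPM with agonist, the smallest range of the 13 at 2.22-fold. ND4L, whose sequence is given above, measured 25.8, 115 and 152 CPM without and 275, 50.9 and 88.1 CPM with agonist. Its range was 10.6-fold, the widest of all members tested by log2 CPM with a prior count of 2, and its log2 fold change 0.50 ± 0.75 (SE). ND6, the only protein gene on the other strand, was counted at 0.906, 4.52 and 2.11 CPM without and 2.89, 2.17 and 2.39 CPM with agonist. ND6 overlaps ND5 by 14 bases on opposite strands, and whether the counting used strand is not given in the sources used here.

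Complex II, succinate dehydrogenase, also serves the tricarboxylic acid cycle. Its 4 subunits had a median log2 fold change of -0.07, and all 4 intervals lay within 2-fold. Sdha measured 339, 366 and 290 CPM without agonist and 280, 170 and 334 CPM with it. Agonist library 2 was the lowest for Sdha, and for the membrane anchor Sdhd the same library was the highest, at 253 CPM beside 128 and 132 CPM with agonist and 122, 164 and 140 CPM without. The log2 fold changes were -0.34 ± 0.28 for Sdha and 0.27 ± 0.30 for Sdhd (SE, adjusted p = 0.768 and adjusted p = 0.847). The iron-sulfur subunit Sdhb measured 161, 171 and 127 CPM without and 135, 149 and 129 CPM with agonist, and the anchor Sdhc had a log2 fold change of 0.01 ± 0.27.

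Complex III, which oxidizes ubiquinol, had 8 nuclear members with a median log2 fold change of -0.01, 4 above and 4 below 0, and all 8 intervals within 2-fold. The hinge subunit Uqcrh measured 176, 227 and 345 CPM without agonist and 225, 224 and 199 CPM with it (log2 fold change -0.21 ± 0.27, SE). No-agonist library 3 stood apart at the top, and the other 5 libraries lay close together. The core proteins Uqcrc1 and Uqcrc2 had log2 fold changes of -0.11 ± 0.24 and -0.14 ± 0.20, and the Rieske iron-sulfur protein Uqcrfs1 of -0.02 ± 0.22. CYTB, the mitochondrial subunit that holds the heme groups of cytochrome b, measured 1462, 4175 and 4947 CPM without and 5663, 3697 and 3254 CPM with agonist. Its range of 3.87-fold was wider than that of any of the 8 nuclear partners, which spanned 1.35-fold to 1.97-fold.

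Complex IV, cytochrome c oxidase, had 18 nuclear members, of which 14 were tested, with a median log2 fold change of 0.04, 8 above and 6 below 0, and 9 intervals within 2-fold. Cox4i1, a general subunit, measured 342, 410 and 339 CPM without agonist and 444, 385 and 298 CPM with it, a log2 fold change of 0.05 ± 0.23 (SE). Cox5a measured 118, 161 and 203 CPM without and 158, 178 and 77.6 CPM with agonist, agonist library 3 being the lowest. Cox7a2l, which helps join complexes III and IV into supercomplexes, measured 152, 243 and 163 CPM without and 219, 278 and 276 CPM with agonist. No-agonist library 2 lay above agonist library 1, and the log2 fold change was 0.47 ± 0.25 (SE, adjusted p = 0.622). Over the alternatives, its adjusted p ranged from 0.358 to 0.966, and in 3 of them the unadjusted p was under 0.05. Cox6a1, whose promoter is shown above, measured 213, 266 and 238 CPM without and 238, 231 and 149 CPM with agonist (log2 fold change -0.22 ± 0.24, adjusted p = 0.845).

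The 3 mitochondrial subunits form the catalytic core of complex IV. COX1 measured 4442, 7839 and 8588 CPM without agonist and 11262, 8066 and 7353 CPM with it. Its log2 fold change of 0.35 ± 0.40 (SE, 95% interval -0.57 to 1.27) had the smallest p of the 13 genes (adjusted p = 0.847). COX2 measured 846, 1957 and 2740 CPM without and 3043, 1947 and 1158 CPM with agonist. COX3 measured 1406, 2283 and 3486 CPM without and 3257, 2527 and 1973 CPM with agonist. For all 3, no-agonist library 1 was the lowest, and for COX1 and COX2 agonist library 1 was the highest.

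Several complex IV subunits, and a few others, have paired forms that differ between tissues, and levels of these were compared per kilobase of transcript. The general form made up nearly all of the pair in each library: Cox4i1 98.1% to 99.2% of the Cox4 sum, beside the Cox4i2 form known from lung and low oxygen. Cox6a1 made up 99.6% to 100%, Cox6b1 94.1% to 97.6%, Cox8a 98.9% to 99.9% and Ndufa4 98.4% to 99.3% of its sum with Ndufa4l2. The muscle forms Cox6a2, Cox7a1 and Cox8b had 21, 51 and 56 counts over all 6 libraries, and the testis forms Cox7b2 and Cox8c 1 and 0. Cox6b2, also known as a testis form, had 448 counts, with 52 to 107 in each library. With 0 of 13137470 counts in no-agonist library 1, for example, Cox8c could still lie at up to 0.228 CPM (3 counts), for counting error only. Cox4i2 measured 4.75, 3.31 and 3.21 CPM without and 4.09, 5.37 and 5.54 CPM with agonist (log2 fold change 0.41 ± 0.36, SE). Cox8b, at 0.0918 to 1.93 CPM, had the largest fitted fold change of the members, 1.23 ± 0.86, and the widest nuclear range. Among the 3 genes for subunit c of complex V, Atp5g3 made up 87.1% to 91.3% of the sum. It made up 72.7% to 82.6% when counts of the pseudogene copies of Atp5g1 and Atp5g2, described below, were added to those genes. Both shares rest on a median transcript length of 2675.5 bases for Atp5g1, against 718.5 for Atp5g3 and 586 for Atp5g2. A shorter length for Atp5g1 would lower the share of Atp5g3. Cox7a2 made up 32.0% to 55.3% and Cox7a2l 43.8% to 67.6% of the Cox7a sum, the latter highest in agonist library 3. These shares leave out the pseudogene copy of Cox7a2l, described below, which held 34.0% of its summed counts. No annotated copy of Cox7a2 was found, so the share of Cox7a2l would rise with the copy added.

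Complex V had 17 nuclear members with a median log2 fold change of -0.05, 7 above and 10 below 0, and 16 intervals within 2-fold. Of the 5 subunits of its catalytic head, 4 were below and 1 above 0. Atp5b, the catalytic beta subunit and the most highly counted nuclear member, measured 996, 1269 and 726 CPM without agonist and 904, 1243 and 878 CPM with it, a log2 fold change of 0.02 ± 0.30 (SE). Atp5a1, the alpha subunit, measured 695, 866 and 574 CPM without and 590, 846 and 630 CPM with agonist. Within each group, library 2 was the highest for both genes. Atp5e, the small epsilon subunit, measured 270, 319 and 513 CPM without and 285, 398 and 238 CPM with agonist (log2 fold change -0.26 ± 0.32, adjusted p = 0.864). Atp5s and Atp5sl, which match the symbol rule but are not core subunits of the synthase, had log2 fold changes of 0.49 ± 0.38 and 0.24 ± 0.22.

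The 2 mitochondrial subunits of complex V belong to the proton channel part. ATP6 measured 494, 1145 and 2022 CPM without agonist and 2210, 833 and 928 CPM with it. ATP8 measured 63.6, 181 and 551 CPM without and 463, 175 and 104 CPM with agonist. The range of ATP8 was 8.64-fold, next to ND4L the widest of the 13, and its top library was no-agonist library 3. The log2 fold changes were 0.12 ± 0.57 and -0.10 ± 0.80 (SE), so that these data leave changes of more than 2-fold in either direction within the interval of both genes.

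**Figure D3:**
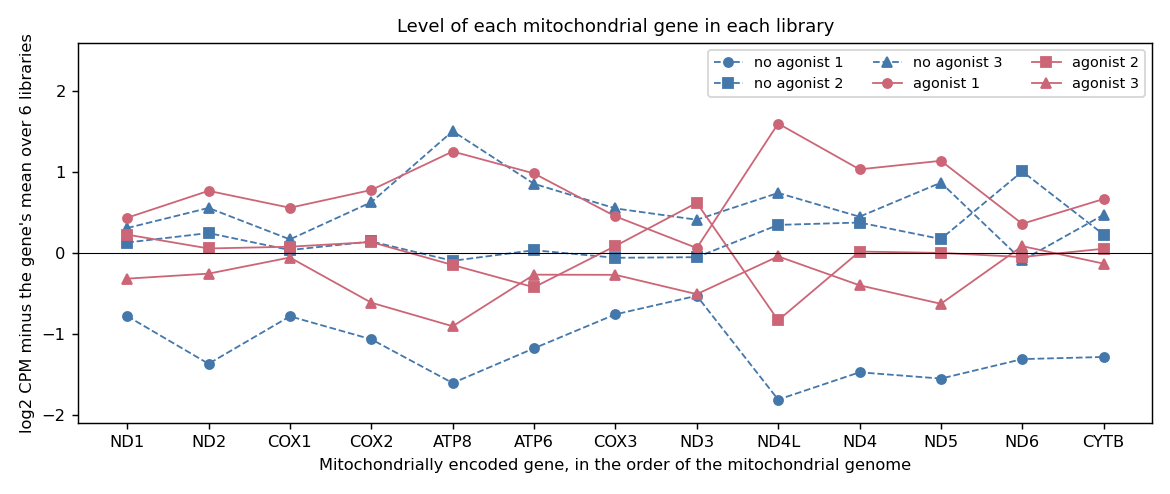
Level of each of the 13 mitochondrially encoded genes in each library, as log2 CPM minus the gene's mean over the 6 libraries, with genes in the order of the mitochondrial genome; lines join the points of a library. No-agonist library 1 lies lowest for all 13 genes and agonist library 1 highest for 9 of them, while the remaining libraries of the 2 groups intermingle.

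The lowest library was the same for every mitochondrial gene, while the order of the other libraries differed between genes. No-agonist library 1 was the lowest for all 13, and agonist library 1 the highest for 9, no-agonist library 3 for 2, and no-agonist library 2 and agonist library 2 for 1 each. The mean level of the 13 genes, centred on the 6 libraries, was -1.18, 0.19 and 0.57 without agonist and 0.77, -0.01 and -0.33 with it on the log2 scale. For the 80 nuclear genes the same measure was -0.10, 0.14 and -0.06 without and 0.13, 0.13 and -0.25 with agonist, and no library was the lowest for more than 40 of them (agonist library 3). Thus no-agonist library 1, lowest for every mitochondrial gene, was lowest for only 11 nuclear genes.

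Depth and ribosomal RNA of each library were set beside the mitochondrial messages. No-agonist library 1 had 13137470 counts and 0.363% of 18S RNA, and agonist library 1 12220461 counts and 1.94%. The 2 mitochondrial ribosomal RNAs, Rnr1 and Rnr2, took 0.0743%, 0.290% and 0.130% of the counts without agonist and 0.172%, 0.131% and 0.127% with it. No-agonist library 1 was again the lowest, but no-agonist library 2, where 18S RNA was highest, was the highest. Counts on the 13 messages were 8.23 times those on the 2 ribosomal RNAs in that library and 16.5 to 22.6 times in the other 5. Centred smooth muscle markers were at 0.16, -0.05 and 1.45 without agonist and 0.60, -1.05 and -1.10 with it, and epithelial markers at 0.17, 0.53 and 0.38 without and -0.06, -0.35 and -0.67 with agonist. The part of depth, ribosomal RNA, cell make-up and RNA handling in the mitochondrial levels was not tested.

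Per kilobase of transcript, mitochondrial messages were far more abundant than the nuclear ones that make their partner subunits. The median mean level was 1600 CPM per kb (1599.9 before rounding) over the 13 mitochondrial genes and 108 CPM per kb over the 78 tested nuclear members with a known transcript length. Mitochondrial levels ran from 4.81 (ND6) to 5129 (COX1) CPM per kb, and nuclear levels from 2.03 (Cox8b) to 801 (Atp5e). In complex I the medians were 483 for the mitochondrial and 88.1 for the nuclear genes, in complex IV 3174 and 188, and in complex V 1562 and 173 CPM per kb. CYTB stood at 3380 CPM per kb and its nuclear partners in complex III at a median of 145, led by Uqcrh at 490 and Uqcr11 at 311. With complexes read from the symbols, the leading nuclear genes were Ndufa6 (399), Ndufa4 (302), Ndufa7 (240) and Ndufc2 (215) in complex I, Cox4i1 (490), Cox8a (472), Cox6a1 (389) and Cox6b1 (309) in complex IV, and Atp5e (801), Atp5b (523), Atp5g3 (415) and Atp5d (315) in complex V. The 4 complex II genes had a median of 115 CPM per kb. ND6 lay below all nuclear medians, and the lowest of the other 12 mitochondrial genes, ND3, was at 310 CPM per kb.

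**Figure D4:**
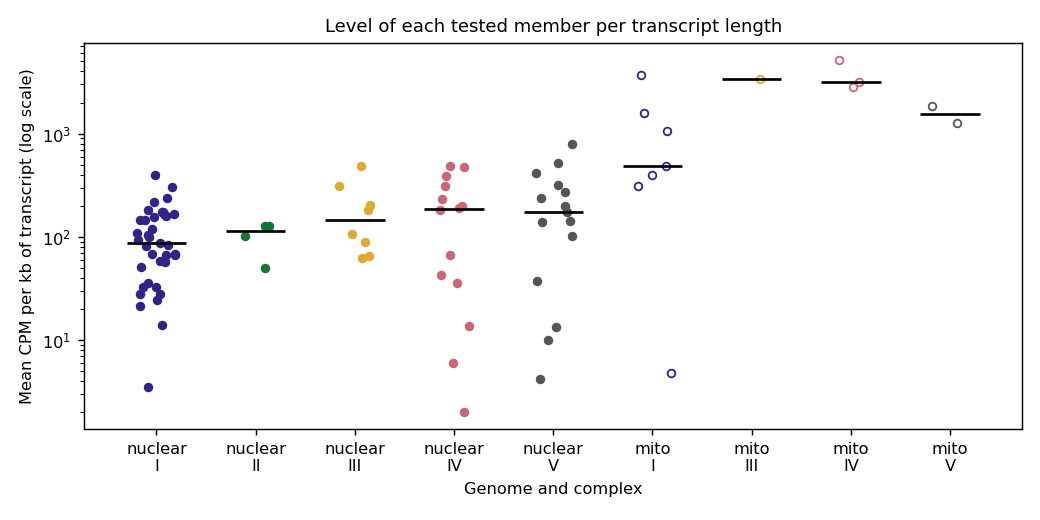
Mean level over 6 libraries of each tested member in CPM per kb of transcript, on a log axis, by genome and complex; filled points are nuclear, open points mitochondrial, and horizontal lines are medians. Apart from ND6 at 4.81, the mitochondrial genes lie at 310 or more, above the median of every nuclear complex (88.1 to 188).

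The level of some members may depend on how reads were shared with similar copies elsewhere in the genome, which is not stated in the sources used. Annotated pseudogenes in GENCODE M21 that share at least 20 runs of 50 bases with a member's transcripts, and have a row in the count table, were found for 15 members. For Atp5l, the g subunit of complex V, 97.3% of the summed counts stood on 9 such rows and 541 counts on its own, most of the others on Gm10221 (chr5:24581554-24581862). For Cox7c the share on copies was 88.3%, mainly Gm12338, for Atp5g1 77.8%, mainly Gm10039, and for Atp5h 73.8%, mainly Gm10250. Uqcrb (56.8%), Ndufs3 (55.0%), Atp5g2 (48.6%), Ndufs5 (46.7%), Uqcr11 (36.4%), Cox7a2l (34.0%) and Atp5f1 (29.4%) followed, and Ndufb11, Atp5c1 and Atp5j2 were under 10%. The low levels per kilobase of Atp5l (13.3) and Atp5g1 (10.1) are therefore uncertain.

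**Figure D5:**
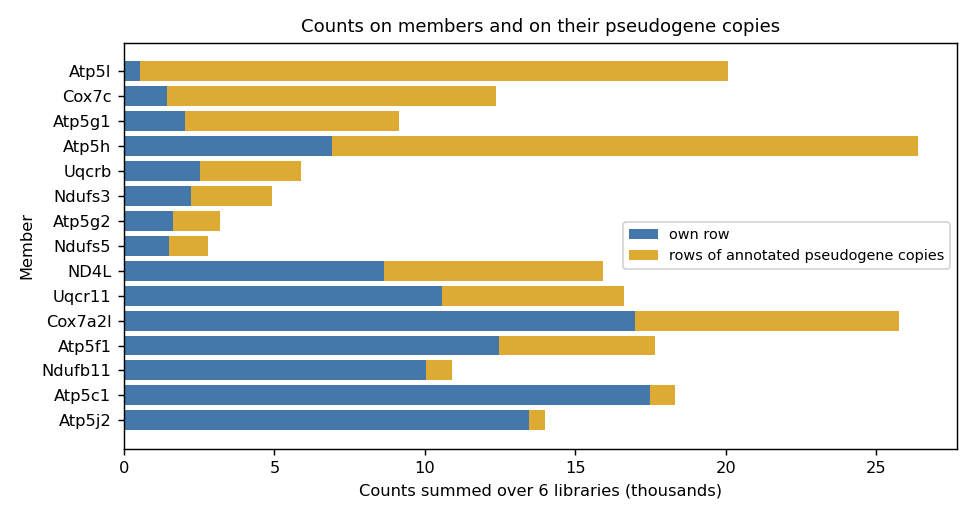
Counts summed over the 6 libraries, on the own row of each of 15 members (blue) and on the rows of their annotated pseudogene copies (yellow), ordered by the share on copies. Copies hold 97.3% of the sum for Atp5l and 3.94% for Atp5j2.

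Adding the copies' counts to their members, an alternative chosen after seeing the data, gave no unadjusted p under 0.05. Cox7a2l with its copy Gm6969 measured 228, 363 and 231 CPM without agonist and 304, 450 and 433 CPM with it (log2 fold change 0.53 ± 0.28, SE). The largest shift was that of Uqcrb, from 0.11 to 0.32. ND4L has a near-identical nuclear copy, Gm10222 (chr1:24612407-24612700), whose row held 7280 counts beside 8643 on ND4L. That row's counts were 246, 807 and 1644 without agonist and 2407, 1399 and 777 with it. With the copy added, ND4L measured 44.4, 186 and 303 CPM without and 468, 146 and 148 CPM with agonist, again with no-agonist library 1 lowest and agonist library 1 highest. Runs of 50 bases shared with annotated nuclear copies covered 98.0% or more of COX2, COX3, ATP6, ND4L and ND3. They covered 62.2% of ND4 and 51.1% of COX1, and none of ND1, ND6, CYTB or ATP8. Only annotated pseudogenes were searched, so nuclear copies without annotation, of ATP8 or any other gene, would not be seen.

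The wider set of genes that build and regulate the chain was read from the same fit. Of 41 assembly factors tested none had an unadjusted p under 0.05 (median log2 fold change -0.05), and the same held for 22 genes of mitochondrial DNA maintenance and transcription, 19 of mitochondrial RNA processing and 32 of membrane and import. Over all genes tested, 8656 were above and 7925 below 0, with a median of 0.02. The maintenance list had 19 genes above and 3 below 0, with a median of 0.19. It included Rrm2b, a ribonucleotide reductase subunit, at 32.2, 59.3 and 23.8 CPM without agonist and 63.6, 47.9 and 52.9 CPM with it (adjusted p = 0.702). Of 76 mitochondrial ribosomal proteins, 1 had an unadjusted p under 0.05: Mrpl36 measured 68.4, 78.5 and 84.2 CPM without and 49.9, 56.4 and 45.3 CPM with agonist. Its groups did not overlap, and its log2 fold change was -0.61 ± 0.18 (SE, adjusted p = 0.368).

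Of the 17 genes of the tricarboxylic acid cycle, 1 had an unadjusted p under 0.05. Idh2, the mitochondrial NADP-dependent isocitrate dehydrogenase, measured 126, 108 and 70.2 CPM without agonist and 161, 164 and 179 CPM with it, a log2 fold change of 0.73 ± 0.25 (SE, adjusted p = 0.423). All 3 agonist libraries lay above the others. Of 16 regulators of mitochondrial biogenesis, Esrra, a nuclear receptor that acts with PGC-1 coactivators, measured 45.8, 66.5 and 108 CPM without and 55.1, 34.6 and 20.7 CPM with agonist (log2 fold change -0.99 ± 0.42, adjusted p = 0.531). Agonist library 1 lay above no-agonist library 1. Of 23 electron carriers and further subunits, Gpd2, the mitochondrial glycerol-3-phosphate dehydrogenase, measured 48.3, 52.2 and 49.4 CPM without and 38.3, 39.9 and 26.2 CPM with agonist (log2 fold change -0.52 ± 0.21, adjusted p = 0.513). Coq10b, a coenzyme Q binding protein, measured 14.6, 15.3 and 15.7 CPM without and 9.39, 9.37 and 11.5 CPM with agonist (log2 fold change -0.59 ± 0.25, adjusted p = 0.527). For both genes all 3 agonist libraries lay below the others. These 5 genes are 5 of 246 tested on the lists (2.03%), where 9.26% of all genes tested had an unadjusted p under 0.05. None of the 5 was called under any of the 17 alternatives.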

How the data were processed

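The values are gene-level read counts deposited by the authors for 6 endometrium libraries, 1 column per library and 1 row per gene symbol. Per the labels' protocols, the Ion Total RNA-Seq Kit was applied to total RNA (integrity number above 8.0), and an Ion Proton gave single-end reads. Reads were counted with HTSeq 0.6.1 on mm10 (GRCm38), per the submitters' processing notes. The aligner, annotation, strand setting and treatment of multiply matching reads were not stated in the sources used. All 44788 rows named a gene, and 0 columns were left unused.

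The whole table was fitted with edgeR 4.0.16 in R 4.3.3: filterByExpr left 16581 genes, libraries were scaled by TMM factors, and 3 agonist were compared with 3 no-agonist libraries by the quasi-likelihood F-test, with Benjamini-Hochberg adjusted p over all genes tested and a threshold of 0.05. Standard errors were derived from the fold change and F value, and 95% intervals from a t distribution with 7.65 degrees of freedom. Spread within groups is the SD of log2 CPM with a prior count of 2, and fold ranges of single genes between libraries come from the same values. No set test was run. limma 3.58.1 and DESeq2 1.42.0 served as alternatives. Transcript lengths are medians of GENCODE M21 (GRCm38) basic protein-coding transcripts. Motifs were searched in RefSeq promoters. Mitochondrial sequences were read from the GENCODE M21 transcript sequences (GRCm38).

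Named genes are all mitochondrial members, per complex up to 4 nuclear members highest per kilobase and up to 4 with the smallest p, tissue-restricted forms and their partners, members whose groups did not overlap, and up to 3 genes per pathway list by p. Ndufs1, Ndufb2, Cox5a, Atp5a1, Uqcrfs1 and Gm10222 with other copies were named after their values were seen. The members and lists were chosen with earlier results of these data known.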

Additional observations from a re-analysis of the deposited data

How the results depend on the processing

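No member was called under any of 17 alternatives, and 1569 of 1576 member values moved by less than the spread between libraries. The latter count is no measure of stability. Leaving out a single library can hardly move a group mean by more than that spread, and some other alternatives change only the test or the scaling. Signs were unstable: 210 of the 1576 values changed sign, none of a called gene. Scaling by library totals alone moved the median log2 fold change over all tested genes from 0.02 to 0.18. That of nuclear members moved to 0.16 and that of mitochondrial genes to 0.37. Relative to all genes, the nuclear median stayed at -0.02 and the mitochondrial median went from 0.17 to 0.18. Genes called over the whole table numbered 36 with no filter on low counts, 394 with DESeq2, 268 with edgeR's likelihood ratio test, 7 without both libraries high in 18S RNA, and 0 to 1 when each library was left out in turn (1 without no-agonist library 2); the cause was not tested. Nuclear members with an unadjusted p under 0.05 on the higher side numbered 2 with library totals, 1 with upper-quartile factors, 2 without both 18S-rich libraries and 0 to 2 leaving out single libraries. On the lower side they numbered 0 to 2, with 2 when agonist library 2 was left out (Ndufs8 and Ndufb2). These are counts out of 80 or 81 nuclear members tested. Of all genes tested, 10.3% had such a p in either direction with library totals and 9.20% with upper-quartile factors. The share was 11.3% without both 18S-rich libraries and 6.24% to 11.6% leaving out single libraries. No paired analysis was possible because the labels give the groups no shared replicate numbers, litter or batch. ND6 is limited by depth, with 186 counts over the 6 libraries.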

Other observations

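The table also holds rows for mitochondrial transfer RNAs, of which 22 were present. Their precursors are cut from the same transcripts as the 13 messages. TrnM had 195, 202 and 448 counts without agonist and 144, 3238 and 163 with it. Agonist library 2 alone stood high, the log2 fold change was 1.74 ± 1.11 (SE, adjusted p = 0.693 by edgeR's quasi-likelihood test), and without that library it was -1.02. TrnD measured 0.755, 0.870 and 0.735 CPM without agonist and 1.93, 3.60 and 0.923 CPM with it, so that all 3 agonist libraries lay above the others (log2 fold change 1.44 ± 0.58, adjusted p = 0.513), at 8 to 53 counts per library. Of the 2 mitochondrial ribosomal RNAs, Rnr1 had a log2 fold change of -0.38 ± 0.51 and Rnr2 of -0.38 ± 0.49 (SE). Both signs turned without no-agonist library 2, the library highest in 18S RNA: the mean of Rnr1 was then 420 CPM without and 526 CPM with agonist, and that of Rnr2 666 and 839 CPM. None of these values passed the adjusted threshold.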
